A study of Mus musculus with 3 samples.

Results

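The mouse mitochondrial genome encodes 13 messenger RNAs, 2 ribosomal RNAs and 22 transfer RNAs. All 37 were taken from the deposited gene tables by their GENCODE M21 symbols, which start with mt-, out of 55536 annotated genes. They were measured in inflammation-experienced regulatory T cells (Tregs), CD4 T cells that depend on the transcription factor Foxp3 and hold other immune cells in check, from mouse material of 12 weeks of age. The labels describe polyA plus RNA-seq of 1 biosample, with 3 libraries that are technical replicates 1 to 3 of biological replicate 1. These 3 libraries form the only group, so no treatment, genotype or cell type can be contrasted, and every error given is a spread between technical libraries that carries nothing about variation between mice. How the inflammation was induced, how the cells were sorted, the genotype and whether counting used strand are not given in the sources used here.

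Mitochondrial DNA is transcribed from both strands into long precursors, and enzymes that cut at the transfer RNAs release most of the messenger and ribosomal RNAs. The messenger RNAs encode subunits of complexes I, III and IV of the electron transport chain and of complex V, the ATP synthase, while complex II is made from nuclear genes alone. Their tails of A are added inside the organelle, and in several genes the tail completes the stop codon. Nuclear chromosomes also carry copies of mitochondrial DNA, so a read can match a mitochondrial gene and a nuclear pseudogene equally well.

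The 3 libraries held 35652707, 31665170 and 37810591 expected counts, in which a model divides each read over the genes it matches. All 6 of the Treg markers Foxp3, Il2ra, Ctla4, Ikzf2, Cd4 and Cd3e were detected in every library, with summed levels between 3276 and 3461 CPM (counts scaled to a fixed library total). Markers of other cells were low, with summed levels of at most 55.6 CPM for B cells, 27.9 for CD8 T and NK cells, 49.3 for stromal and epithelial cells, 7.36 for erythroid cells and platelets, 5.28 for myeloid cells and 1.34 for muscle and heart. Of the 5 stromal and epithelial markers, 4 were highest in library 3, and their sum was 39.1, 29.3 and 49.3 CPM in libraries 1 to 3. Library 3 stood apart by a list of 15 gland secretory genes, known from earlier results to be high there, whose summed level was 3.11, 7.68 and 34914 CPM in libraries 1 to 3. In library 1, 6 of these 15 genes were at 0, in library 2, 5 were, and in library 3 none. The results are therefore also given without library 3.

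Mitochondrially encoded genes took 1.32% of gene counts in library 1 (95% Wilson interval 1.32% to 1.33%), 1.42% in library 2 (1.41% to 1.42%) and 1.68% in library 3 (1.67% to 1.68%). The intervals cover counting error only and did not overlap. The mean was 1.47% ± 0.181 (SD, n = 3), and 1.37% over libraries 1 and 2 alone. With the gland secretory genes left out of the total, the share in library 3 was 1.74%. Most mitochondrial counts came from messenger RNAs. They held 78.8%, 82.5% and 79.5% in libraries 1 to 3, ribosomal RNAs 20.8%, 17.1% and 20.2%, and transfer RNAs 0.394%, 0.416% and 0.380%. The 3 complex IV messenger RNAs alone held 43.7% ± 1.30 of mitochondrial counts, against 14.7% ± 0.310 for the 7 of complex I, 11.0% ± 0.692 for the 1 of complex III and 10.8% ± 0.171 for the 2 of complex V. The 9 genes on the minus strand, mt-Nd6 and 8 transfer RNAs, held only 1.13%, 1.13% and 1.16%. Counts assigned to nuclear copies, described further on, are not in the shares of the complexes. In libraries 1 to 3 the chromosome 1 copy of mt-Atp6 held 28121, 30254 and 40343 counts, and that of mt-Nd3 867, 521 and 1091. With the chromosome 1 copies added, complex V held more counts than complex I in every library. The order of complexes I, III and V thus depended on how reads were divided with the copies.

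Levels were compared between genes as TPM, which divides counts by length and scales them to a fixed sum in each library. The ribosomal RNAs, the RNA core of the mitochondrial ribosome, were abundant although the libraries were selected for A tails, which both are known to carry in short form. The small subunit RNA mt-Rnr1 (chrM:70-1024, mm10) had TPM values of 704, 667 and 847 in libraries 1 to 3. The large subunit RNA mt-Rnr2 (chrM:1094-2675) had 2482, 2181 and 2948. Both were lowest in library 2 and highest in library 3, and their ranges did not overlap. The log2(TPM + 1) difference was 1.77 ± 0.06 (SD, n = 3), a ratio of mean TPM of 3.43, although the pair comes from 1 precursor. Per messenger RNA count, the ribosomal RNAs gave 0.264, 0.207 and 0.254 counts.

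Complex IV, cytochrome c oxidase, passes electrons to oxygen, and its 3 mitochondrial subunits form its catalytic core. The TPM of mt-Co3 (chrM:8607-9390) was 5013, 5252 and 6122, the highest level of the 13 messenger RNAs in every library and rank 6 among all genes by mean TPM. The TPM of mt-Co1 (chrM:5328-6872), the subunit that binds the heme and copper of the oxygen site, was 2562, 3042 and 3342, and mt-Co2 (chrM:7013-7696), which takes electrons from cytochrome c, had 2765, 3159 and 2639. In TPM, the order of mt-Co1 and mt-Co2 changed between libraries, with mt-Co2 higher in libraries 1 and 2 and mt-Co1 higher in library 3. The difference in log2(TPM + 1) was 0.06 ± 0.25, smaller than its spread. By the authors' second estimate, the posterior mean described further on, the order did not change. Posterior mean TPM was 2391, 2813 and 3135 for mt-Co1, above 2006, 2155 and 2086 for mt-Co2.

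Complex V makes ATP from the proton gradient. Its mitochondrial members are mt-Atp6 (chrM:7927-8607), a part of the proton channel, with a TPM of 3313, 3603 and 3976, and mt-Atp8 (chrM:7766-7969), a small membrane subunit, with 1428, 1612 and 1750. Both were lowest in library 1 and highest in library 3, and their ranges did not overlap. The reading frames share 43 bases and are known to sit on 1 messenger RNA. The shared bases are shown with the start codon of mt-Atp6 and the stop codon of mt-Atp8 in capitals, in DNA letters from the GENCODE M21 transcripts, at chrM:7927-7969 on the plus strand.
mt-Atp8 and mt-Atp6 overlap: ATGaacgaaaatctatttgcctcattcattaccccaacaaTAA
Although 1 transcript carries both frames, the level per length of mt-Atp8 was lower than that of mt-Atp6 by 1.19 ± 0.03 on the log2(TPM + 1) scale, a ratio of 2.27 between the means. The gene mt-Atp8 is 204 bases long with an effective length of 155 bases in the tables. Its mean TPM was 1298 with the full length in its place, against 1597 with the effective length.

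Complex III moves electrons from ubiquinol to cytochrome c, and its only mitochondrial subunit is cytochrome b. The TPM of mt-Cytb (chrM:14145-15288) was 2001, 2423 and 2732, the fifth of the 13 messenger RNAs by mean level and rank 32 among all genes. No value of mt-Cytb overlapped the range of mt-Atp8, the next in the order.

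Complex I oxidises NADH, and its 7 mitochondrial subunits form the membrane arm that pumps protons. They lay lower than those of the other complexes and spanned a wide range among themselves. The highest was mt-Nd1 (chrM:2751-3707), at the joint of the membrane arm with the ubiquinone site, with a TPM of 1042, 1260 and 1327. The pump subunit mt-Nd4 (chrM:10167-11544) had 623, 676 and 831, mt-Nd5 (chrM:11742-13565), the pump at the far end of the arm, had 394, 438 and 510, and the pump subunit mt-Nd2 (chrM:3914-4951) had 324, 334 and 358. All 4 were lowest in library 1 and highest in library 3. The lowest messenger RNAs were mt-Nd4l (chrM:9877-10173), with 205, 204 and 265, and mt-Nd3 (chrM:9459-9806), with 212, 258 and 200. These 2 small membrane subunits swapped places between libraries, and their log2 difference of 0.01 ± 0.37 was far below its spread. The reading frames of mt-Nd4l and mt-Nd4 overlap by 7 bases and are also known to share 1 messenger RNA, yet mt-Nd4l was lower by 1.66 ± 0.06 on the log2 scale. The highest mean TPM of the 13, that of mt-Co3, was 24.5 times the lowest, that of mt-Nd3. Both ends depended on the estimate. By posterior mean TPM, mt-Co3 was at 3471 and the lowest was mt-Nd4l at 202, with mt-Nd3 at 207. With the counts of nuclear copies added, as described further on, mt-Nd4l was also the lowest and the ratio was 27.4.

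The gene mt-Nd6 (chrM:13552-14070), a membrane subunit of complex I, is the only messenger RNA gene on the minus strand. Its TPM was 344, 358 and 441, which placed it between mt-Nd5 and mt-Nd2. The difference from mt-Nd5 was -0.23 ± 0.05 on the log2 scale and had the same sign in 3 of 3 libraries, but the ranges overlapped. The difference from mt-Nd1 was -1.67 ± 0.13 and the ranges did not overlap, while in the second count table described further on, per kilobase, it was -0.11. Outside stretches shared with nuclear copies, that table gave nearly the same count per base to every messenger RNA counted there. It could therefore hardly show a difference. In mammals the messenger RNA of mt-Nd5 is known to run on past its reading frame across the opposite strand of mt-Nd6. Without knowledge of the strand in counting, reads of that stretch cannot be told apart from reads of mt-Nd6.

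**Figure D1:**
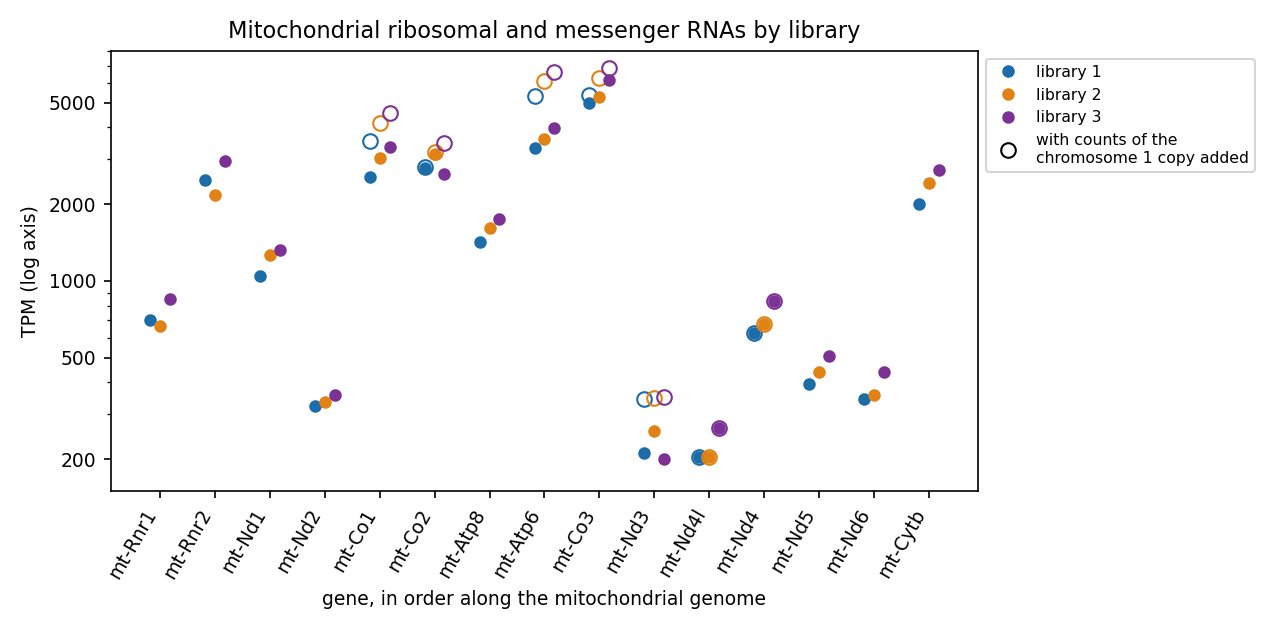
TPM on a log axis for the 2 ribosomal and 13 messenger RNAs, in order along the mitochondrial genome, with 1 filled point per library and open points after the counts of the chromosome 1 copy were added. The highest filled points are those of mt-Co3, at 5013 to 6122, and the lowest those of mt-Nd3 and mt-Nd4l, at 200 to 265.

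Ordered by mean TPM, the messenger RNAs ran mt-Co3, mt-Atp6, mt-Co1, mt-Co2, mt-Cytb, mt-Atp8, mt-Nd1, mt-Nd4, mt-Nd5, mt-Nd6, mt-Nd2, mt-Nd4l and mt-Nd3. Neighbours were called apart under 3 conditions together: a difference of the same sign in every library, ranges over libraries that do not meet, and deposited TPM bounds that do not meet within any library. These bounds lie around the authors' posterior mean TPM and need not contain the TPM that was ordered. For mt-Co3 in library 1 the TPM was 5013, while the posterior mean was 3256 with bounds of 2929 and 3548. The rule thus combines 2 estimates. Of the 12 neighbouring pairs, 5 were apart, namely mt-Cytb over mt-Atp8, mt-Atp8 over mt-Nd1, mt-Nd1 over mt-Nd4, mt-Nd4 over mt-Nd5 and mt-Nd2 over mt-Nd4l. None of the 4 pairs among the top 5 genes was separated by this rule. Over libraries 1 and 2 alone, 8 of 12 pairs were apart. Among the 5 gene pairs compared, the 2 ribosomal RNAs, mt-Atp8 with mt-Atp6, mt-Nd4l with mt-Nd4, and mt-Nd6 with mt-Nd1 were apart, and mt-Nd6 with mt-Nd5 was not. Without library 3 the differences were 1.76, -1.19, -1.66, -1.71 and -0.24 in that order, and the last pair was then apart. An exact permutation test that flips signs (two-sided) cannot go below p = 0.25 with 3 libraries, and all 5 pairs had that value. Across the 13 messenger RNAs, log2 mean TPM had a Pearson correlation of 0.14 with length, 0.29 with GC content and -0.19 with start position (Spearman 0.23, 0.35 and -0.23). These are weak and describe 13 genes that share the same libraries.

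In 3 of the 13 messenger RNA genes the annotated sequence ends in a single T of the last codon, so the tail of A is known to supply the rest of a TAA stop. The last 18 bases of these 3 and of mt-Co1, which ends in a whole stop codon, are printed to show this, with the bases of the last codon in capitals.
mt-Co3 (chrM:9373-9390): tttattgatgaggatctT
mt-Nd4 (chrM:11527-11544): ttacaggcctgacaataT
mt-Cytb (chrM:15271-15288): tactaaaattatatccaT
mt-Co1 (chrM:6855-6872): tatgtaaaagtaaaaTAA
The 3 genes without a whole stop codon include the highest messenger RNA, mt-Co3, and members in the middle of the order, mt-Cytb and mt-Nd4. Of the other 10, mt-Nd1 and mt-Nd2 end in TAG and 8 in TAA.

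In these libraries, which were selected for A tails, the transfer RNA rows held few counts apart from 2 genes on the minus strand. The serine transfer RNA mt-Ts1 had 1583, 1578 and 2045 expected counts, and the glutamate transfer RNA mt-Te had 130, 136 and 183. Together they held 92.2%, 92.0% and 92.7% of all transfer RNA counts, while the other 20 genes had 145, 149 and 175 counts in all. Both are shown because they carry nearly all of the signal, from 5′ to 3′ of the minus strand.
mt-Ts1 (chrM:6870-6938): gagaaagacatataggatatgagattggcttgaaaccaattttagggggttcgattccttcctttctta
mt-Te (chrM:14071-14139): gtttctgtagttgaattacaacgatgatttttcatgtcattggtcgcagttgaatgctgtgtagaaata
The end of mt-Ts1 lies opposite the last 3 bases of mt-Co1, and mt-Te lies directly beside mt-Nd6. In mammals the messenger RNA of mt-Co1 is known to run on across the opposite strand of mt-Ts1, so reads of it cannot be told apart here from reads of the transfer RNA. The counts of mt-Ts1 were 1.87%, 1.79% and 1.70% of those of mt-Co1. At 69 bases both genes have an effective length of 20 bases, and mt-Ts1 thus reached a TPM of 3588, 4064 and 4245, a level that rests on this short length.

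The next highest were the transfer RNAs for cysteine, mt-Tc, with 33, 22 and 30 counts, asparagine, mt-Tn, with 10, 22 and 20, and leucine, mt-Tl1, with 7, 16 and 16. The lowest were those for arginine, mt-Tr, with 3, 0 and 2 counts, phenylalanine, mt-Tf, with 3, 1 and 2, and serine, mt-Ts2, with 2, 2 and 4. A count of 0 allows up to 3 counts, so mt-Tr in library 2 was not separated from its other values. The median of mean counts was 4.83 over the 14 transfer RNAs of the plus strand and 14.7 over the 8 of the minus strand, with mt-Ts1, mt-Te, mt-Tc and mt-Tn all on the minus strand. Whether this reflects transfer RNA or the opposite strand was not tested.

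**Figure D2:**
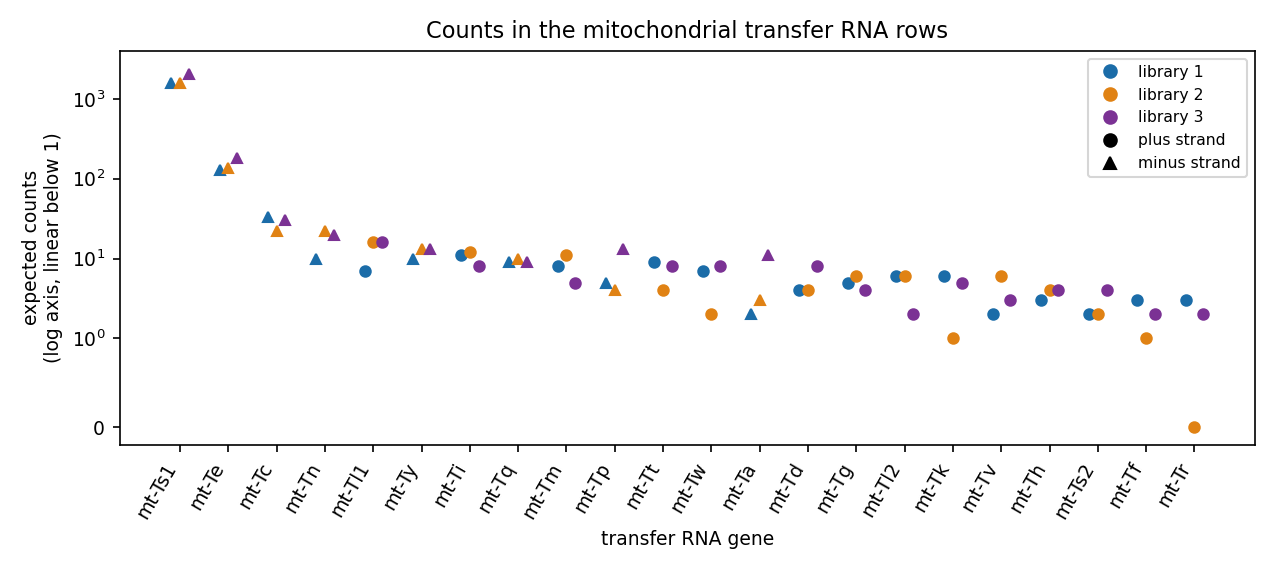
Expected counts of the 22 mitochondrial transfer RNA genes per library, on a log axis that is linear below 1, with triangles for genes on the minus strand. Only mt-Ts1, at 1578 to 2045, and mt-Te, at 130 to 183, lie above 33 counts.

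Part of the reads that match mitochondrial genes was assigned to annotated nuclear copies. A block of 7 unprocessed pseudogenes on chromosome 1 (mm10, minus strand, from 24611535 to 24616197) matches mt-Co1, mt-Co2, mt-Atp6, mt-Co3, mt-Nd3, mt-Nd4l and mt-Nd4 in the same order. Of these, Gm28661 (681 bases, mt-Co2), Gm10925 (678 bases, mt-Atp6), Gm28437 (783 bases, mt-Co3), Gm10222 (294 bases, mt-Nd4l) and Gm28439 (876 bases, the first part of mt-Nd4) were identical to the mitochondrial gene over their whole length. The copy Gm28438 (345 bases, mt-Nd3) differed by the single substitution T3C, counted from the first base of mt-Nd3. The copy Gm29216 covers the last 492 bases of mt-Co1 with 6 substitutions, all among its first 13 bases, namely T1056A, C1057T, A1059G, A1060G, C1062A and A1066T, counted from the first base of mt-Co1. Those bases are printed to show how little separates the pair, with the bases that differ in capitals.
mt-Co1 (chrM:6381-6421, plus strand): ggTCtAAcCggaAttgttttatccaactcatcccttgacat
Gm29216 (chr1:24616157-24616197, minus strand): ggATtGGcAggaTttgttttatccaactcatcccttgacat
Of the 443 windows of 50 bases in Gm29216, 430 also occur in mt-Co1, so most reads of that length cannot be placed in 1 of the 2.

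The share of windows of 50 bases found in any annotated nuclear transcript was 100% for mt-Co2, 99.9% for mt-Co3, 99.5% for mt-Atp6, 98.8% for mt-Nd4l and 98.0% for mt-Nd3. It was 62.2% for mt-Nd4, 51.1% for mt-Co1, 8.19% for mt-Nd2, 7.61% for mt-Nd5 and 1.04% for mt-Rnr2. For mt-Nd1, mt-Cytb, mt-Nd6, mt-Atp8 and mt-Rnr1 no window was shared, so no read of that length could match both the gene and an annotated copy exactly.

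The way the authors' model shared reads with the copies differed by gene and by library. The copy Gm29216 was assigned 27.6%, 27.1% and 27.0% of the counts of mt-Co1 and copy together, and Gm10925 was assigned between 37.8% and 40.6% of those of mt-Atp6. These shares were nearly constant. Gm29216 covers only 492 of the 1545 bases of mt-Co1, so its share cannot be set beside that of a copy of the whole gene. Per length, the TPM of Gm29216 was 3295, 3825 and 4180, above that of mt-Co1 at 2562, 3042 and 3342. For Gm28661 the share of the mt-Co2 counts was 1.62% and 1.04% in libraries 1 and 2 but 24.0% in library 3, that is 636, 409 and 12740 counts. For Gm28437 it was 6.67%, 15.8% and 10.7% of the mt-Co3 counts, and for Gm28438 38.3%, 25.8% and 43.1% of the mt-Nd3 counts. The copies Gm10222 and Gm28439 were assigned 0 counts in every library, although they are identical to mt-Nd4l and to the first part of mt-Nd4. In all, the 7 copies held 0.190%, 0.247% and 0.296% of gene counts, and with them the mitochondrial share was 1.51%, 1.67% and 1.97%. By mean TPM, Gm29216 ranked 15 among all genes, above mt-Co1 at rank 23. Whether any read came from the copies themselves was not tested.

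The authors' second estimate, the posterior mean count, divided the identical pairs differently. It gave Gm28661 23.5%, 27.0% and 36.0% of the mt-Co2 sum and Gm28437 35.0%, 42.6% and 40.3% of the mt-Co3 sum. The posterior mean count of mt-Co3 was 69.6%, 68.2% and 66.9% of its expected count, that of mt-Co2 77.7%, 73.8% and 84.2%, and that of mt-Atp6 91.9%, 91.8% and 93.1%. For mt-Co1, mt-Nd1, mt-Cytb and mt-Nd6, which keep unshared windows over a large part or all of their length, the posterior mean was at least 99.98% of the expected count. The levels of mt-Co2, mt-Atp6 and mt-Co3 thus rested on the estimate chosen.

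**Figure D3:**
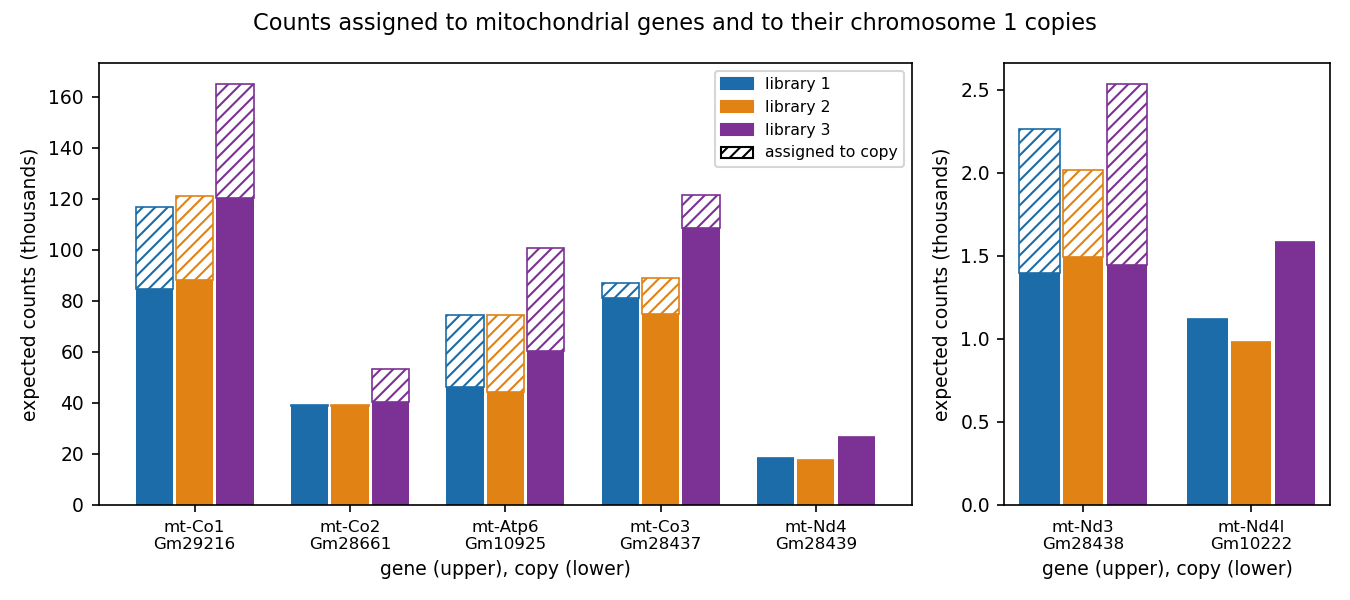
Expected counts, in units of 1000, assigned to 7 mitochondrial genes (solid) and to their chromosome 1 copies (hatched), with 1 bar per library and a smaller scale in the right panel. The hatched share is near 27% in every library for mt-Co1, whose copy covers only its last 492 bases. For mt-Co2 it is 1.62%, 1.04% and 24.0%, and for mt-Nd4 and mt-Nd4l it is 0.

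Adding the counts of each copy to its mitochondrial gene changed the order. The mean TPM was then 6154 ± 745 (SD, n = 3) for mt-Co3, 6008 ± 650 for mt-Atp6, 4097 ± 525 for mt-Co1, 3158 ± 332 for mt-Co2 and 347 ± 4.45 for mt-Nd3. The genes mt-Co3 and mt-Atp6, which lie side by side on the genome, came to within 0.03 ± 0.02 on the log2 scale. For mt-Nd3, the values of 343, 347 and 352 replaced 212, 258 and 200, and its mean moved above that of mt-Nd2. That difference of 0.04 ± 0.06 was smaller than its spread and changed sign between libraries. Of 12 neighbouring pairs 8 were apart, among them mt-Atp6 over mt-Co1, mt-Co1 over mt-Co2 and mt-Co2 over mt-Cytb, by a looser rule without the authors' bounds. By that looser rule 6 pairs were apart before the copies were added. The difference of mt-Atp8 from mt-Atp6 was then -1.91, with a copy added to mt-Atp6 alone. Only annotated transcripts were searched, so an unannotated copy of mt-Atp8 would not have been found.

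The deposited M4 tables hold a second count of the same libraries, as whole numbers, against the older GENCODE annotation M4, with rows for the 13 messenger RNAs only. In these tables mt-Co2, mt-Atp8, mt-Atp6, mt-Co3 and mt-Nd4l had 0 counts in every library and mt-Nd3 had 0, 1 and 0. Of these 6 genes, 5 have 98.0% to 100% of their windows shared with nuclear transcripts, and mt-Atp8 is the exception with no window shared with an annotated one. Where counts were present they barely differed between libraries. The M4 counts of mt-Cytb were 2201, 2197 and 2199, those of mt-Co1 1395, 1407 and 1415, those of mt-Nd1 1810, 1802 and 1844 and those of mt-Nd4 1029, 1025 and 1032. The M4 counts of mt-Nd5 were 2987, 2977 and 3057, those of mt-Nd2 1538, 1490 and 1606 and those of mt-Nd6 908, 902 and 939.

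Per unshared window of 50 bases, these 7 genes had between 1.64 and 2.06 M4 counts. The M21 expected counts per base of effective length ran from 6.49 for mt-Nd2 in library 2 to 80.5 for mt-Co1 in library 3. The ratio of M21 to M4 counts was 4.30 for mt-Nd6 and 69.6 for mt-Co1. Over the 22195 matched genes of the M4 tables, 133, 109 and 142 lay above 1 count per exon base in libraries 1 to 3, and 15, 14 and 15 above 2. The M4 counts therefore did not follow the M21 levels of the members, and mitochondrial genes took 0.122%, 0.132% and 0.122% of them. The handling of duplicate and multiply placed reads in the M4 tables is not given in the sources used here, and its part in these values was not tested.

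**Figure D4:**
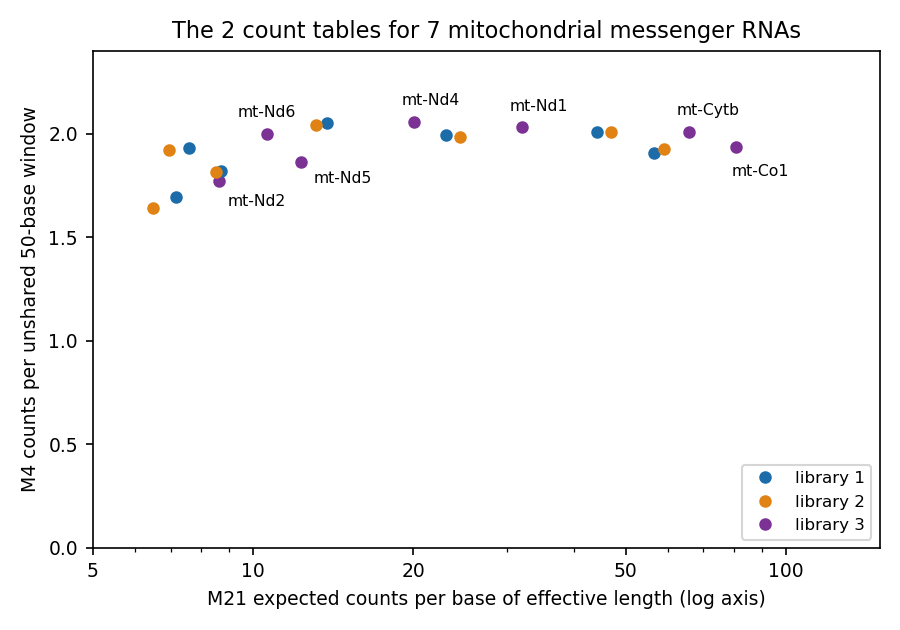
M4 counts per unshared window of 50 bases against M21 expected counts per base of effective length (log axis), for the 7 messenger RNAs with M4 counts, 1 point per library. The M4 values stay between 1.64 and 2.06 while the M21 values run from 6.49 to 80.5.

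Between the libraries, most messenger and ribosomal RNAs were highest in library 3. Counts were put on a common scale by TMM (edgeR's trimmed mean method) and tested by chi-square for differences beyond Poisson counting noise, with Benjamini-Hochberg adjustment over all genes tested at 0.05, a test of these libraries and of no condition. All 15 messenger and ribosomal RNAs differed, with adjusted p from 8.39e-09 for mt-Nd3 downwards. However, so did 77.2% of the 18253 genes tested and 84.8% of the 6731 with a mean count of at least 1000. The test takes expected counts as given, so error in dividing reads between a gene and its copy does not enter it. Of all 37 members, 22 reached the mean count of 10 needed for the test, and 17 of them differed, the transfer RNAs among those being mt-Ts1 (adjusted p 1.08e-12) and mt-Te (adjusted p 0.0163). A differing gene with its highest level in library 3 was found 13 times among the 15, against 23.7% of all genes tested, with mt-Co2 and mt-Nd3 as the exceptions. For 11 of the 15, library 1 was also the lowest, against 9.68% of all genes tested. Most of the 15 are cut from shared precursors, so they are not 15 independent observations.

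Library 3 was higher than library 1 for 14 of 15 (background 26.4%) and lower for 0 (background 22.7%). The exception was mt-Nd3, with a log2 ratio of 0.05 and an adjusted p of 0.479. The median log2 ratio over the 13 messenger RNAs was 0.47, against 0.03 over the 6731 abundant genes, those whose mean count reached 1000. Single genes ran from 0.58 for mt-Cytb, 0.54 for mt-Nd4 and 0.51 for mt-Co1 down to 0.27 for mt-Nd2 and 0.06 for mt-Co2. The ribosomal RNAs mt-Rnr1 and mt-Rnr2 had log2 ratios of 0.39 and 0.37. This difference moved with the gland secretory genes, which took 3.49% of counts in library 3 and 0.000311% in library 1, and their part in it was not tested. In bulk RNA a different number of cells of a type and a different amount of mitochondrial RNA per cell cannot be told apart.

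Library 3 was higher than library 2 for 13 of 15 (background 29%) and lower for mt-Co2 and mt-Nd3, with log2 ratios of -0.16 and -0.26 (background of lower genes 28%). The median over the 13 messenger RNAs was 0.24. For mt-Co2 and mt-Nd3 the division of reads with the copies was uncertain. The authors' posterior SDs in libraries 1 to 3 were 1594, 1874 and 1666 counts for mt-Co2 and 256, 151 and 287 for mt-Nd3. The chi-square test left this error out. Libraries 1 and 2, which both have gland secretory genes at trace level, differed as well. Library 2 was higher than library 1 for 12 of 15, all messenger RNAs (background 30.8%), with a median log2 ratio over the 13 of 0.18, and lower for both ribosomal RNAs (background 29.7%), with log2 ratios of -0.05 for mt-Rnr1 and -0.16 for mt-Rnr2. The gene mt-Nd4l, with a log2 ratio of 0.02 and an adjusted p of 0.799, was the exception. The messenger and ribosomal RNAs thus moved in opposite directions between libraries 1 and 2 and in the same direction between libraries 1 and 3.

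The exceptions mt-Co2 and mt-Nd3 were the genes whose copies had their highest share of the counts in library 3. With the copies added, the log2 ratio of library 3 over library 1 was 0.43 for mt-Co2 and 0.16 for mt-Nd3, and that over library 2 was 0.22 and 0.12. All 13 messenger RNAs then had their lowest scaled count in library 1 and their highest in library 3. For library 3 over library 1 the median of their log2 ratios was 0.48, in a range of 0.16 to 0.58. Under scaling by total counts, which the gland secretory genes enter, the median of the 6731 abundant genes was -0.05 for library 3 over library 1 and 11 of 13 messenger RNAs, copies not added, were higher in library 3. The coefficient of variation over libraries was 8.06% to 20.6% for the messenger RNAs, with a median of 16.2%, against a median of 7.10% for abundant genes.

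**Figure D5:**
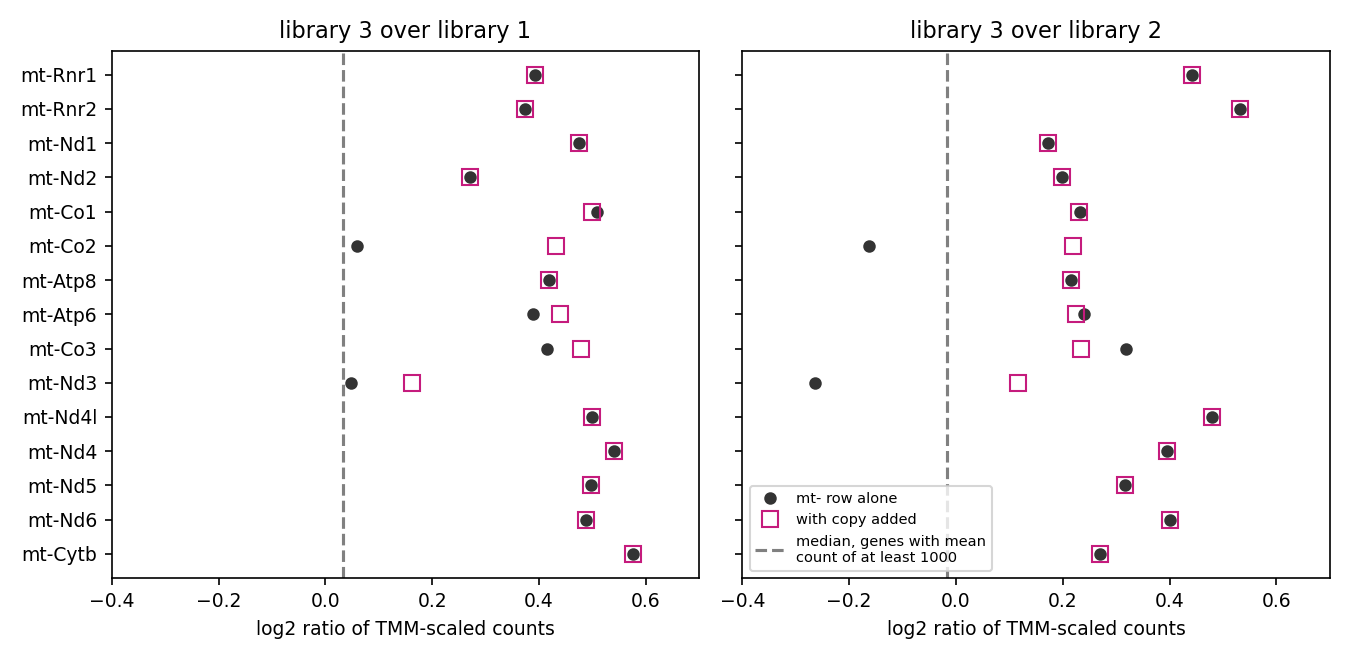
Log2 ratio of TMM-scaled counts in library 3 over library 1 (left) and over library 2 (right) for the 15 messenger and ribosomal RNAs, alone (points) and with the chromosome 1 copy added (squares). The dashed line is the median of the 6731 abundant genes, at 0.03 and -0.02, and only mt-Co2 and mt-Nd3 alone lie left of it on the right.

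The nuclear genes that keep and express the mitochondrial genome were all detected. Of 141 genes in 6 lists, 141 had a TPM of at least 1 in every library, with a median TPM of 43.6 ± 1.02 (44.0 without library 3), against 10494 of 22028 protein-coding genes (47.6%). For upkeep of mitochondrial DNA, 11 of 11 genes were detected with a median TPM of 25.1, the highest being Dguok, a kinase that supplies deoxynucleotides, at 111 ± 9.94, the single-strand binding protein Ssbp1 at 95.7 ± 11.8 and the DNA polymerase Polg at 93.6 ± 4.44, and the lowest the exonuclease Mgme1 at 6.43 ± 1.71. For transcription, 10 of 10 were detected with a median of 22.3, led by Tfam, which packs mitochondrial DNA and starts transcription, at 85.0 ± 5.22, with Mterf3, of the termination factor family, at 81.3 ± 8.52.

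For cutting and modifying the precursors, 18 of 18 genes were detected with a median TPM of 22.2. Hsd17b10, part of the enzyme that cuts at the 5′ end of transfer RNAs, was at 75.5 ± 0.760, Trnt1, which adds CCA to transfer RNAs, at 60.4 ± 3.88, and 1110008L16Rik, the nuclease subunit of that 5′ enzyme, at 6.44 ± 0.611. For tailing, stability and decay, 14 of 14 were detected with a median of 29.5, led by the oligonuclease Rexo2 at 195 ± 36.2, with Slirp, which binds mitochondrial messenger RNAs, at 69.3 ± 3.54, and the deadenylase Pde12 at 9.77 ± 0.495. For translation, 11 of 11 were detected with a median of 30.7, from the elongation factor Tufm at 93.4 ± 7.06 to the release factor Mtrf1 at 4.02 ± 0.663. The mitochondrial ribosomal proteins were the highest of these lists, with 78 of 78 detected and a median of 62.8, led by Mrpl52 at 188 ± 8.59.

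All 72 nuclear subunits of complexes I, III, IV and V were detected, with a median TPM of 199 ± 10.4 (203 without library 3). Within each complex, the mitochondrial messenger RNAs stood above the nuclear ones. In complex I the median over the 7 mitochondrial genes was 2.57 ± 0.360 times that over the 36 nuclear genes, and 4 nuclear genes, led by Ndufa3 at 386 ± 27.6, had a higher mean TPM than the lowest mitochondrial one, mt-Nd3. In complex III mt-Cytb was 10.03 ± 1.80 times the median of 9 nuclear genes, the highest of which was Uqcrh at 369 ± 19.7. In complex IV the ratio was 8.24 ± 1.34 over 11 nuclear genes, led by Cox4i1 at 621 ± 11.9, and in complex V 8.01 ± 1.27 over 16, led by Atp5b, the catalytic beta subunit, at 880 ± 28.5. In complexes III, IV and V no nuclear gene exceeded the lowest mitochondrial one. Counts assigned to nuclear copies are not in these ratios. Those of complexes IV and V rest on genes such as mt-Co2 and mt-Atp6, whose levels depended on the estimate chosen.

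The ratio of mitochondrial to nuclear level was lowest in library 1 and highest in library 3 in all 4 complexes. It was 2.31, 2.43 and 2.98 for complex I, 8.33, 9.83 and 11.9 for complex III, 6.86, 8.34 and 9.53 for complex IV and 6.80, 7.92 and 9.32 for complex V. The mitochondrial median of complex IV was mt-Co2 in libraries 1 and 2 but mt-Co1 in library 3. The nuclear subunits did not share the higher counts of library 3. Their median log2 ratio of library 3 over library 1 was 0.00 for complex I with 18 of 36 genes higher, 0.00 for complex III with 4 of 9, 0.00 for complex IV with 4 of 11 and -0.01 for complex V with 8 of 16. The median for mitochondrial ribosomal proteins was 0.04.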

How the data were processed

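Polyadenylated RNA of 1 biosample was sequenced in 3 libraries labelled technical replicates, and the SDs measure only the spread between them. The chi-square p-values set the differences between these libraries against Poisson counting noise. The sign-flip p-values concern differences of gene pairs over the same 3 libraries. None of these carries anything about variation between mice. The authors deposited expected counts, posterior mean counts and TPM with lower and upper bounds for GENCODE M21 genes on mm10, per the file headers, and whole-number counts for annotation M4. Aligner, counter, strand and duplicate handling are not given in the sources used here. Effective lengths lie 49 bases below lengths. Rows for transfer RNA scans, ERCC and phiX (0.170%, 0.170% and 0.218% of expected counts) were left out. Gene-row totals were 35592206, 31611422 and 37728241, and M4 totals 9718021, 8945992 and 9904722.

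Expected counts were rounded and scaled by TMM (edgeR 4.0.16, R 4.3.3). The chi-square test took genes whose mean count reached 10 and was tested on simulated data. With 1 group, no quasi-likelihood contrast exists. Pairs of libraries differed in 8970 to 11045 genes, so none was counted as a repeat of another. Gene pairs were compared on log2(TPM + 1), with a pseudocount of 1, which understates changes of low genes. Copies were searched with blastn 2.17.0 (at least 90% identity over 100 bases) among GENCODE M21 transcripts, since no genome was used here. The identities and substitutions given for the chromosome 1 copies come from a separate comparison without gaps over the whole copy. For Gm29216 that comparison covered 492 bases, and the blastn alignment 483. The 7 copies on chromosome 1 were the planned list, and 17 genes were found. Sequences are those of GENCODE M21 transcripts. The remaining computations ran in Python 3.11.15 with scipy 1.17.1, pandas 2.3.3, numpy 2.4.6 and matplotlib 3.10.9, and DESeq2 1.42.0 gave alternative size factors.

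The members, gene lists and tests were chosen with earlier results of these data known. Named are all messenger and ribosomal RNAs, the 5 highest and 3 lowest transfer RNAs, the copies, and examples from the 3 highest and 2 lowest genes of each nuclear list by mean TPM.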

Additional observations from a re-analysis of the deposited data

How the results depend on the processing

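Of 176 alternative values, 146 kept their direction and call, or, for values and counts without a test, stayed near the reported value, 28 moved, 1 gained its call and 1 reversed. The mitochondrial share in libraries 1 to 3 was 0.122%, 0.132% and 0.122% in M4 counts, 1.51%, 1.67% and 1.97% with the 7 copies added, 1.52%, 1.67% and 1.97% with all 17 copies (chosen after seeing the data), and 1.04%, 1.17% and 1.33% for messenger RNAs alone. Leaving out 1 library gave mean shares of 1.37% to 1.55%, 5 to 8 neighbouring pairs apart, and a mt-Nd6 minus mt-Nd5 difference of -0.25 to -0.20, apart without library 3 at -0.24. In M4 counts per kilobase that difference reversed to 0.10, and mt-Nd6 minus mt-Nd1, which kept its sign, shrank from -1.67 to -0.11. Per unshared window, the M4 counts were nearly the same for every gene counted, at 1.64 to 2.06. The M4 counts could therefore hardly show a difference between genes, and no conclusion is drawn from these 2 values. With the copies added, 8 neighbouring pairs were apart by the looser rule without bounds, which alone gives 6, and mt-Atp8 minus mt-Atp6 went from -1.19 to -1.91. With no filter on counts, 19459 of 38814 genes differed. In the M4 counts 6286 of 12056 genes differed between libraries, with 4 of 7 mitochondrial genes differing and 5 of 7 higher in library 3 than in library 1. The nearly constant M4 counts of these 7 genes limit that result too. With 1 library left out, 9267 to 11076 genes differed, and fewer libraries enter that test. The other values counted as moved are mean TPM: posterior means of 316 for mt-Nd2, 2082 for mt-Co2, 3124 for mt-Atp6 and 3471 for mt-Co3, and those with copies or full length given above. M4 counts could give no value for the mt-Rnr2, mt-Atp8 and mt-Nd4l pairs, whose genes have no row or 0 counts. The cause of these shifts was not tested. Of the 22 transfer RNAs, 15 lay under the mean count of 10. Whether depth, the selection for A tails or their short length limited them was not tested. No paired analysis was possible because there is 1 group.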
